A study of Mus musculus with 12 samples.

Results

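The AP-1 and immediate early genes followed here were Fos, Fosb, Fosl2, Jun, Junb, Jund, Egr1, Myc, Ier3 and Socs3, which are 10 of the 24296 gene symbols in the deposited liver RNA table. They were taken by name from the symbol column, and the FPKM (sequenced fragments over transcript length in kilobases and library size) of all transcripts with the symbol were summed per gene and liver. The study measured total liver RNA of male C57/BL6N mice with fibrosis induced by carbon tetrachloride (CCl4), a solvent that injures hepatocytes, and asked how silibinin and phloridzin, plant compounds, act in it. There were 3 livers in each of 4 groups, numbered 1 to 3 by the labels. The control group was labelled WT, and whether it received the olive oil vehicle is not given in the sources used here. The model group received CCl4 in olive oil by intraperitoneal injection at 5 mL/kg, 2 injections a week for 8 weeks. The silibinin group and the phloridzin group received the same CCl4 course and the drug from week 5. The phloridzin group is the high-dose group by the study's results section. The doses of both drugs are stated in the study's methods, and the sample labels give none. The time between the last CCl4 injection and removal of the liver is not given in the sources used here.

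Immediate early genes are transcribed within minutes of a signal, from factors already present in the cell, and most of their mRNAs are short-lived. Products of the Fos and Jun families pair through leucine zippers to form the AP-1 transcription factor, while Egr1 and Myc code for other transcription factors, Ier3 for a stress response protein and Socs3 for an inhibitor of cytokine receptor signalling. In liver, AP-1 and Myc are known from regeneration after injury and from the activation of stellate cells.

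Depth could be compared between libraries because values of long transcripts were whole multiples of a library's smallest step. Relative depth ran from 0.799 in model liver 1 to 1.05 in silibinin liver 3, with 0.966 in model liver 2 and 0.948 in model liver 3. Of small values in genes with 1 transcript, 55.8% were multiples of 4 steps, so a step can be less than 1 fragment and no absolute fragment number is given. Model liver 2 had the highest value of the 3 model livers for 10 of the 10 genes, while it was the highest for 26.7% of all genes tested. Model liver 1 was the lowest of them for 8 of the 10 genes, against 34.9% of all genes tested. For Fosb the height of model liver 2 came from 1 transcript, at 0.470 FPKM there and 0 in every other liver. The most abundant Fosb transcript was highest in model liver 3 (0.536 FPKM, beside 0.341 FPKM in model liver 2). In whole liver, a change in the number of cells of a type and a change in RNA per cell cannot be told apart.

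Genes with a mean of at least 0.5 FPKM over the 12 livers were tested, which took in 9 of the 10 genes and 13158 genes in all, and Fosb fell under the filter. Over the livers outside the model group the lowest mean of the 9 genes was 0.637 FPKM, for Fos. Calls needed an adjusted p under 0.05 and a log2 fold change of more than 1 in either direction (limma, Benjamini-Hochberg over all genes tested). Fold changes are on the log2(FPKM + 1) scale, which understates the change of low genes. FPKM carry no correction for library composition, and the median log2 fold change of all genes tested was 0.34 in model against control, where scaling by median ratios between livers brought it to 0.01. Higher calls made up 89.7% of all calls in model against control and 53.8% after that scaling. For silibinin against model the share was 18.6% and 43.9% after scaling, with a median of all genes of -0.15 and 0.01. For phloridzin against model it was 17.1% and 36.6%, with medians of -0.11 and 0.03. For silibinin against control it was 87.7% and 74.1%, with medians of 0.16 and -0.02, and for phloridzin against control 90.5% and 75.3%, with medians of 0.18 and -0.01.

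Promoter sequences from RefSeq (build GRCm38.p6, 250 bases before to 50 after the start) were matched by symbol and used for 8 of the 10 genes. Member windows on the chromosome that holds Egr1 were left out beforehand, and Myc had no window by symbol. The search therefore says nothing of the promoters of Egr1 and Myc. To see what the genes share, the windows were searched on both strands for TGANTCA (the AP-1 element), TGACGTCA (the cAMP response element), TTCNNNGAA (a STAT site), CACGTG (an E-box bound by MYC), TATAAA (the core of a TATA box) and the CArG box bound by serum response factor. Over all 32851 promoter windows, TGANTCA was held by 7.81%, TGACGTCA by 1.79%, the CArG box by 1.63%, TTCNNNGAA by 8.30%, CACGTG by 7.15% and TATAAA by 13.6%. Of the 8 windows, 2 held TATAAA (Fos and Junb), 1 held TTCNNNGAA (Socs3) and 0 held any of the other 4 motifs. The windows with a match are shown with the matched letters in capitals, for Fos at chr12:85473640-85473939, plus strand, for Junb at chr8:84978699-84978998, minus strand and for Socs3 at chr11:117969317-117969616, minus strand.
Fos: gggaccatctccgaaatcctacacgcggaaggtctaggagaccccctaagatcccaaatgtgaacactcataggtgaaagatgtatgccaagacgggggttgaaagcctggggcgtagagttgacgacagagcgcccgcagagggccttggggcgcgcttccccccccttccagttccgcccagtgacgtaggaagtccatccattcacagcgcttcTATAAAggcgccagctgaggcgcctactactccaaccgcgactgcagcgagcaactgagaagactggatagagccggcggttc
Junb: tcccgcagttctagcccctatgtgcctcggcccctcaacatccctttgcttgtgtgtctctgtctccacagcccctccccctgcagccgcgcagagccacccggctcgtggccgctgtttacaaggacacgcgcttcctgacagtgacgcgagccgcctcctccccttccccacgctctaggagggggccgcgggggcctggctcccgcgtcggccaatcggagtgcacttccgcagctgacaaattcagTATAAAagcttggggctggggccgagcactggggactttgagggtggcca
Socs3: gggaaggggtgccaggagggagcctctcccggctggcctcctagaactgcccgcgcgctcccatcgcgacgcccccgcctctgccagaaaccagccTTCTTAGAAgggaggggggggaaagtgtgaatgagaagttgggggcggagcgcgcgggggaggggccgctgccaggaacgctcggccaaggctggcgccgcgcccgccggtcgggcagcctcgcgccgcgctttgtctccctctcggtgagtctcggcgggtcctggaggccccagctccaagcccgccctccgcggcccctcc

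A match of letters is a description and not a shown binding site, and a window without one says only that these letters are not in it. Counted from the start given by RefSeq, the Fos match began at position -33, the Socs3 match at -154 and the Junb match at 1. RefSeq starts differ from those of the most abundant deposited transcripts for some genes. The RefSeq start of Fosl2 lies 671 bases after the deposited start, so its window lies wholly inside the deposited gene. The RefSeq starts of Jund and Socs3 lie 1210 and 180 bases before the deposited starts, so these windows lie wholly before them. That of Junb lies 30 bases before it, so the Junb match begins 30 bases before the deposited start. For Fosb, Ier3, Fos and Jun the starts are 6, 29, 0 and 0 bases apart.

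Fos (ENSMUSG00000021250, chr12:85473890-85477273, plus strand in the deposited positions on build mm10) codes for the partner of Jun proteins in the AP-1 dimer. It read 0.650, 0.224 and 0.134 FPKM in control livers 1 to 3 and 4.01, 8.37 and 7.39 FPKM in the model livers. It read 0.536, 0.523 and 0.782 FPKM in the silibinin livers and 1.16, 0.944 and 0.783 FPKM in the phloridzin livers. Every model liver stood above the other 9 livers, and the silibinin livers overlapped with the control livers while the phloridzin livers lay above both. The lowest phloridzin liver was almost level with the highest silibinin liver. Mean Fos FPKM was 19.6 times as high in the model group as in the control group, and 36.7 times without control liver 1. Its log2 fold change was 2.47 in model against control (SE 0.23, limma, Benjamini-Hochberg adjusted p = 8.61e-05). It was -2.19 in silibinin against model (SE 0.23, limma, Benjamini-Hochberg adjusted p = 0.000214) and -1.91 in phloridzin against model (same SE, adjusted p = 0.000556). Fosb (ENSMUSG00000003545, chr7:19302696-19310051, minus strand), a close relative of Fos, was the lowest of the 10. Its levels were 0.0105, 0.0149 and 0.0905 FPKM in control livers and 0.350, 0.863 and 0.731 FPKM in model livers. Under silibinin they were 0.0405, 0.0388 and 0.0300 FPKM, and under phloridzin 0.0265, 0.0890 and 0.113 FPKM. The lowest model liver lay above the highest of the other livers. Its most abundant transcript was at 0, 3 and 0 steps in the control livers, so no fold is given against that group. The difference in mean log2(FPKM + 1) was 0.65 in model against control, -0.66 in silibinin against model and -0.60 in phloridzin against model. Each had p = 0.1 by a two-sided exact permutation test, the smallest that 3 livers against 3 can give. In the fit without a filter, Fosb had adjusted p of 0.00170, 0.00378 and 0.00615 in these comparisons (limma, Benjamini-Hochberg), under the fold threshold in each.

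Fosl2 (ENSMUSG00000029135, chr5:32135801-32157842, plus strand), which codes for Fra-2, a Fos family member known from fibrosis, was the most abundant of the 3 Fos genes in each group. It read 3.19, 3.34 and 3.08 FPKM in control livers and 9.68, 15.8 and 11.1 FPKM in model livers. It read 5.29, 4.53 and 4.62 FPKM with silibinin and 4.31, 4.50 and 4.73 FPKM with phloridzin. The livers of both drug groups lay between the control and model livers, with no overlap with either. The log2 fold change of Fosl2 was 1.62 in model against control (SE 0.16, limma, Benjamini-Hochberg adjusted p = 0.000105). With silibinin it fell by 1.16 on the log2 scale against model (adjusted p = 0.00113, limma, Benjamini-Hochberg), and the fall with phloridzin was 1.23 (adjusted p = 0.000821). The silibinin call ended without model liver 2, where the value was -0.97, and after scaling by median ratios, where it was -0.96. Unnamed NONCODE transcripts overlap Fosl2 on both strands, and since the strand setting of the counting is not given, their reads and those of Fosl2 cannot be told apart.

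**Figure D1:**
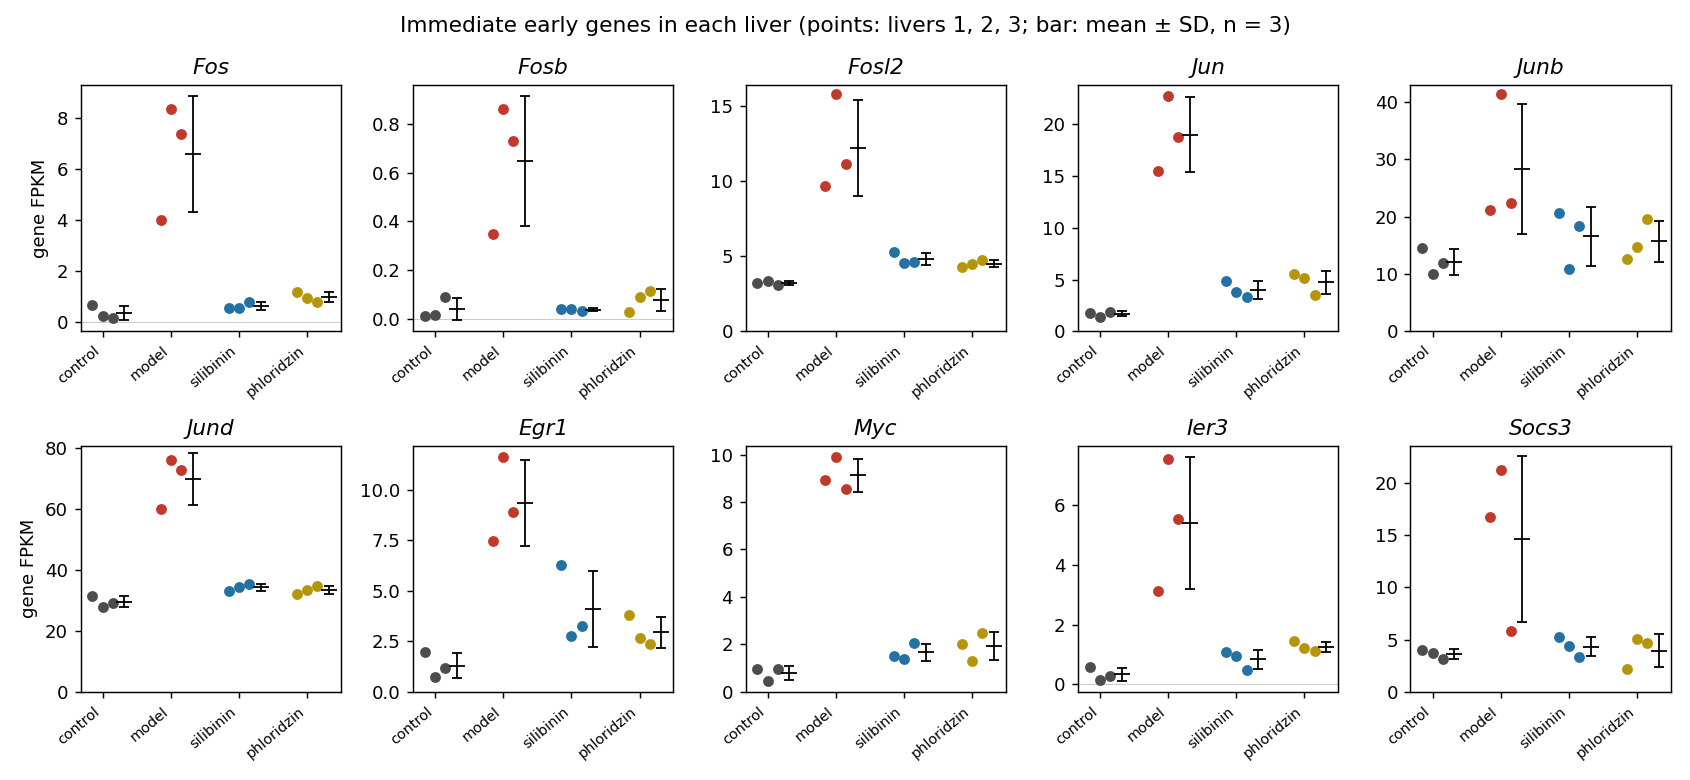
Gene FPKM (vertical axis, a separate linear scale for each gene) in livers 1, 2 and 3 of the control, model, silibinin and phloridzin groups, with a bar for the mean and SD of 3 livers. For each of the 10 genes the 3 model livers lie above the 3 livers of every other group.

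Jun (ENSMUSG00000052684, chr4:95049034-95052222, minus strand), the AP-1 subunit phosphorylated by JNK, read 1.80, 1.40 and 1.84 FPKM in control livers and 15.5, 22.8 and 18.8 FPKM in model livers. It read 4.91, 3.78 and 3.27 FPKM with silibinin and 5.58, 5.12 and 3.50 FPKM with phloridzin. Both drug groups lay wholly below the model livers and wholly above the control livers. Mean Jun FPKM was 11.3 times as high in the model group as in the control group, and 2.37 times as high with silibinin and 2.82 times as high with phloridzin. Of the 13158 genes, Jun had the log2 fold change ranked 40 from the highest in model against control, at 2.89 (SE 0.19, limma, Benjamini-Hochberg adjusted p = 9.97e-06). Against the model group it fell by 2.00 on the log2 scale with silibinin (SE 0.19, limma, Benjamini-Hochberg adjusted p = 0.000128). With phloridzin the change was -1.81 (SE 0.19, limma, Benjamini-Hochberg adjusted p = 0.000265). Jund (ENSMUSG00000071076, chr8:70698949-70700616, plus strand), a Jun protein present in resting cells, was the most abundant of the 10 genes in every group. Its values were 31.6, 28.0 and 29.4 FPKM in control livers and 60.2, 76.3 and 73.0 FPKM in model livers. They were 33.1, 34.5 and 35.3 FPKM with silibinin and 32.1, 33.6 and 34.7 FPKM with phloridzin. The control and drug groups lay within a narrow band, with each drug liver above each control liver. Jund changed by 1.20 in model against control (SE 0.11, limma, Benjamini-Hochberg adjusted p = 0.000102). In silibinin against model the change was -0.998, just short of the fold threshold before rounding (SE 0.11, limma, Benjamini-Hochberg adjusted p = 0.000404), and it was not called. In phloridzin against model it was -1.03 and called (limma, Benjamini-Hochberg adjusted p = 0.000351), and this call ended without model liver 2 (-0.97) or without model liver 3 (-0.999). Scaling by median ratios also ended the calls of Jund in model against control (0.77) and in phloridzin against model (-0.85).

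Junb (ENSMUSG00000052837, chr8:84974484-84978718, minus strand), often an antagonist of Jun in cell growth, had 14.5, 9.98 and 11.9 FPKM in control livers and 21.2, 41.4 and 22.5 FPKM in model livers. With silibinin it had 20.6, 10.8 and 18.4 FPKM and with phloridzin 12.7, 14.8 and 19.7 FPKM. Model liver 2 stood well above the other model livers, and model livers 1 and 3 lay close to the highest drug livers. In model against control the log2 fold change was 1.11 (95% interval 0.46 to 1.77, limma, Benjamini-Hochberg adjusted p = 0.0155). That call ended without control liver 2 (0.99), without model liver 2 (0.81) and after scaling by median ratios (0.69). In silibinin against model Junb was at -0.72 (95% interval -1.38 to -0.07, limma, Benjamini-Hochberg adjusted p = 0.133), and in phloridzin against model at -0.77 (adjusted p = 0.120), neither of which passed the test. Rows of Prdx2 overlap, on the opposite strand, only the short processed Junb transcript (mean 0.0414 FPKM over the 12 livers) and not the coding one. NONCODE rows overlap Fos, Jun, Jund, Ier3 and Socs3 on the opposite strand, with the same limit on strand as for Fosl2.

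Egr1 (ENSMUSG00000038418) codes for a zinc finger factor induced through serum response factor. It read 1.98, 0.745 and 1.18 FPKM in control livers and 7.45, 11.6 and 8.89 FPKM in model livers. With silibinin it read 6.25, 2.78 and 3.27 FPKM and with phloridzin 3.82, 2.66 and 2.35 FPKM. Silibinin liver 1 was close to the lowest model liver, and every drug liver was above every control liver. Its log2 fold change was 2.18 in model against control (SE 0.28, limma, Benjamini-Hochberg adjusted p = 0.000413) and -1.39 in phloridzin against model (limma, Benjamini-Hochberg adjusted p = 0.0104). In silibinin against model it was -1.06 (limma, Benjamini-Hochberg adjusted p = 0.0316, range over alternatives 0.0163 to 0.112), and the call ended without model liver 2 (-0.90), model liver 3 (-1.08), silibinin liver 2 (-0.87) or silibinin liver 3 (-0.96). It also ended after scaling by median ratios (-0.87), with a pseudocount of 0.1 FPKM, with no filter, in a fit of only the 2 compared groups and for the most abundant transcript. Myc (ENSMUSG00000022346, chr15:61985391-61990374, plus strand), a driver of ribosome production and cell growth, had the tightest model values of the genes relative to the mean, at 8.93, 9.90 and 8.54 FPKM. The control livers had 0.940, 0.450 and 0.959 FPKM, the silibinin livers 1.51, 1.39 and 2.05 FPKM and the phloridzin livers 2.01, 1.303 and 2.49 FPKM. Every drug liver lay above the control livers and far below the model livers. Mean Myc FPKM was 11.7 times as high in the model group as in the control group, and 9.61 to 13.1 times when a liver of these groups was left out. The log2 fold change of Myc was 2.52 in model against control (SE 0.18, limma, Benjamini-Hochberg adjusted p = 1.84e-05). It was -1.94 in silibinin against model (limma, Benjamini-Hochberg adjusted p = 0.000128) and -1.81 in phloridzin against model (adjusted p = 0.000199).

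Ier3 (ENSMUSG00000003541, chr17:35821684-35822923, plus strand), which codes for a small protein that modulates cell survival and ERK signalling, read 0.588, 0.163 and 0.274 FPKM in control livers and 3.12, 7.53 and 5.54 FPKM in model livers. It read 1.09, 0.957 and 0.474 FPKM with silibinin and 1.45, 1.21 and 1.13 FPKM with phloridzin. The 3 model livers spread over more than the range of all other livers and did not overlap with them. Its log2 fold change was 2.20 in model against control (SE 0.25, limma, Benjamini-Hochberg adjusted p = 0.000210), -1.75 in silibinin against model (adjusted p = 0.00142) and -1.44 in phloridzin against model (adjusted p = 0.00448). Socs3 (ENSMUSG00000053113, chr11:117966079-117970047, minus strand), the feedback inhibitor induced by STAT3, had 4.03, 3.72 and 3.11 FPKM in control livers and 16.7, 21.2 and 5.82 FPKM in model livers. It had 5.24, 4.41 and 3.38 FPKM with silibinin and 2.18, 5.07 and 4.65 FPKM with phloridzin. Model liver 3 was just above the highest drug livers, so the height of the model group came from livers 1 and 2. In model against control Socs3 was at 1.59 (SE 0.39, limma, Benjamini-Hochberg adjusted p = 0.0110). After scaling by median ratios it was at 1.21 and not called. In silibinin against model it was at -1.39 (limma, Benjamini-Hochberg adjusted p = 0.0400, range over alternatives 0.00359 to 0.136). The call ended in 9 of the 12 fits that left out a liver, those without any control or silibinin liver, model liver 1 or 2, or phloridzin liver 3, with values from -1.51 to -1.05. In phloridzin against model it was at -1.54 (limma, Benjamini-Hochberg adjusted p = 0.0292, range over alternatives 0.00256 to 0.125), and 5 of those fits ended the call, without model liver 1 or 2 or any phloridzin liver, with values from -1.71 to -1.20. Scaling by median ratios ended both calls as well (-1.20 with silibinin and -1.36 with phloridzin), as did a fit with no filter and a fit of only the 2 compared groups, and the silibinin call was also lost for the most abundant transcript.

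In model against control, 9 of the 9 tested genes were called higher, where 9.42% of all genes tested were. Their median log2 fold change was 2.18, beside 0.34 for all genes. The model livers lay wholly above the control livers for 10 of the 10 genes, as they did for 45.1% of all genes tested. After scaling by median ratios 6 of them were called, with Junb, Jund and Socs3 the ones lost, and the 9 were still higher in model. Of all genes, 528 of 13118 were called higher after that scaling, beside 1240 of 13158 as reported. In silibinin against model 7 of the 9 were called lower, against 3.25% of all genes tested. Their median was -1.39, beside -0.15 for all genes. The count was 4 after scaling by median ratios and also 4 without model liver 2, with Fosl2, Egr1 and Socs3 lost in each. Of all genes, 242 of 13118 were called lower after that scaling and 377 of 13158 without model liver 2, beside 428 as reported. In phloridzin against model 8 of the 9 were called lower, against 2.92% of all genes tested, and 6 after scaling by median ratios or without model liver 2, with Jund and Socs3 lost in each. Their median was -1.44, beside -0.11 for all genes. Of all genes, 243 of 13118 were called lower after the scaling and 342 of 13158 without model liver 2, beside 384 as reported. For 10 of the 10 genes the silibinin livers lay wholly below the model livers, as for 27.8% of all genes tested, and so did the phloridzin livers, as for 22.4%. The comparisons share the model livers, so a chance height of those livers would enter each of them.

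**Figure D2:**
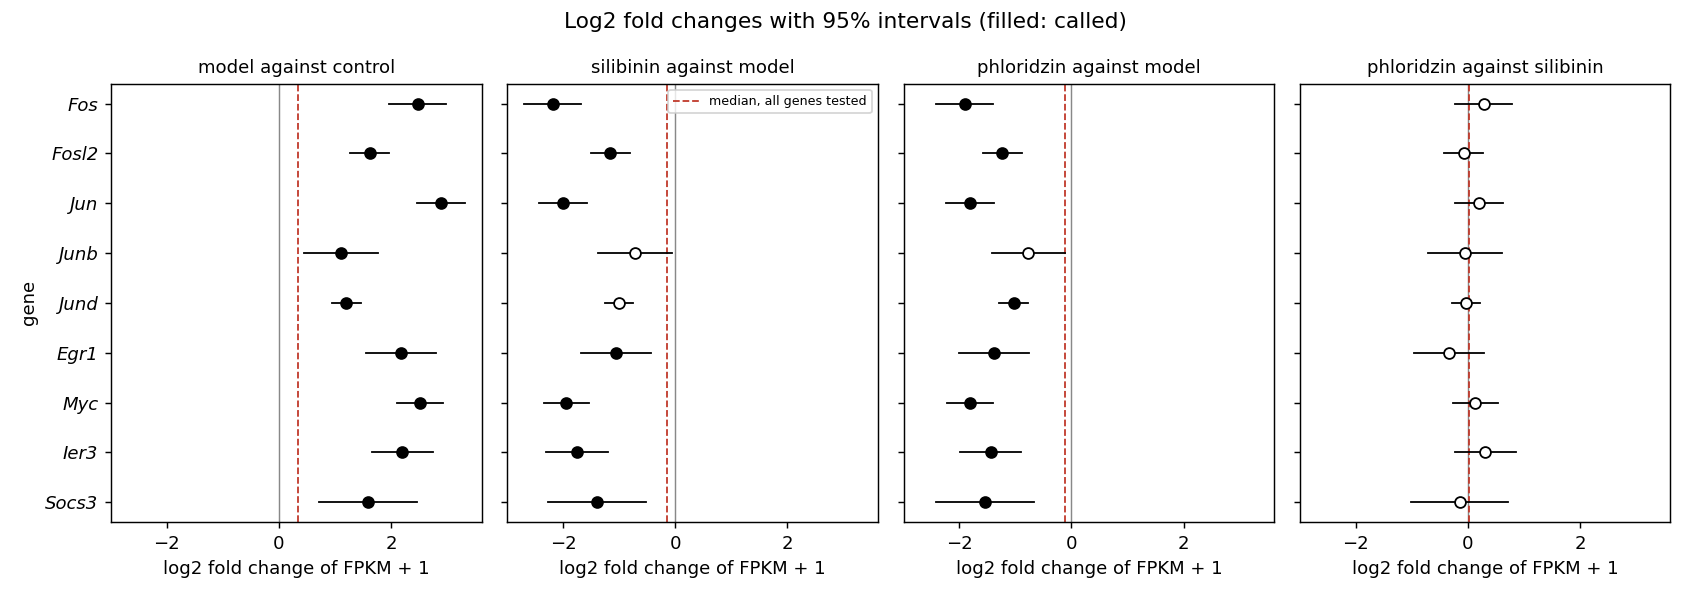
Log2 fold changes of FPKM + 1 (horizontal axis) with 95% intervals for the 9 tested genes in 4 comparisons, with filled points for called genes and a dashed line at the median of all genes tested. Values are above 0 in model against control and below 0 in both drug comparisons with the model group, while intervals of the direct comparison of the drugs include 0.

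The drugs, given to livers with the same CCl4 course, were compared directly. In phloridzin against silibinin 0 of the 9 genes were called by limma, where 0.0228% of all genes tested were called in either direction, and 0 had an unadjusted p under 0.05. The count was also 0 by voom of limma on recovered fragments. The differences ran from -0.33 for Egr1 (95% interval -0.95 to 0.30) to 0.31 for Ier3 (95% interval -0.23 to 0.86). The interval was narrowest for Jund, at -0.29 to 0.22, and widest for Socs3, at -1.02 to 0.73. Livers of the drug groups overlapped for 8 of the 10 genes. For the other 2, Fos and Ier3, every phloridzin liver lay above every silibinin liver, while the drug groups did not overlap, in either direction, for 7.99% of all genes tested. For Fos the lowest phloridzin liver (0.78305 FPKM) and the highest silibinin liver (0.78174 FPKM) were almost level, less than 1 step apart.

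Against control, levels under the drugs were near those of control livers for some genes and above them for others. In silibinin against control 1 of the 9 was called higher, Egr1, where 1.74% of all genes tested were. Egr1 was at 1.12 (95% interval 0.50 to 1.75, limma, Benjamini-Hochberg adjusted p = 0.0479, range over alternatives 0.0288 to 0.161). That call ended in 11 of the 12 fits that left out a liver, each except the fit without phloridzin liver 1, with values from 0.84 without silibinin liver 1 to 1.33 without control liver 1, and in 6 of the 9 other alternatives. Jun was at 0.89 (limma, Benjamini-Hochberg adjusted p = 0.0284), under the fold threshold. In phloridzin against control 1 of the 9 was called higher, Jun, where 2.74% of all genes tested were. Jun was at 1.08 (95% interval 0.66 to 1.51, limma, Benjamini-Hochberg adjusted p = 0.0108), and at 0.97, uncalled, without phloridzin liver 1, with its call also lost in a fit of only the 2 compared groups. Myc was at 0.71 (limma, Benjamini-Hochberg adjusted p = 0.0418), under the fold threshold. After scaling by median ratios 0 of the 9 were called in either comparison with control. Of all 13118 genes tested after scaling, 152 were called higher with silibinin and 189 with phloridzin. Jund then turned to -0.02 with silibinin and -0.09 with phloridzin, from 0.21 and 0.17. Socs3 turned to -0.15 with phloridzin, from 0.05. The other tested genes stayed above control in both drug groups after the scaling. Of 65 cell type markers, 7 were called higher and 1 lower in silibinin against control, and 15 and 2 in phloridzin against control. With phloridzin 8 of those higher were macrophage markers and 3 cycling cell markers. Some of these calls depended on the setting. With phloridzin those of Top2a, Itgam and Ccnb1 ended in 15, 13 and 5 alternatives. With silibinin those of Jchain, Ccnb1 and Itgam ended in 15, 11 and 6. The cycling cell markers summed to 106 FPKM in phloridzin liver 1, beside 13.8 and 10.7 FPKM in livers 2 and 3. The part of cell types in the differences of the members from control was not tested.

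Annotated transcripts behind the sums were looked at for the genes that have several. Fos has 3 rows, 1 coding and 2 short processed transcripts. The coding transcript was at 0.139 ± 0.0337 FPKM (SD, n = 3) in control livers and 4.88 ± 1.86 FPKM in model livers. So the model group was higher for the coding transcript too. That transcript held 68.4, 71.6 and 80.1% of the Fos sum in the model livers, 39.8, 2.46 and 62.3% in the silibinin livers and 36.6, 27.4 and 66.5% in the phloridzin livers. In the control livers it held 16.7, 78.0 and 100%, which is 41.4% of the control group's sum with control liver 1 and 86.2% without it. Processed transcripts thus made up a larger part of Fos in every drug liver than in any model liver, while the control share depended on 1 liver. In silibinin liver 2 the coding Fos transcript was at 3 steps, beside 1278 steps in model liver 2. Myc has 7 coding rows, of which the most abundant was at 0.481 ± 0.158 FPKM in control livers and 4.26 ± 0.525 FPKM in model livers. With silibinin that row was at 0.359 ± 0.0575 FPKM, where the livers overlapped with the control livers and the difference did not pass the test. For Jun, Jund, Egr1 and Ier3 the table has 1 row each, and for Junb the coding row held 99.6% of the sum in the silibinin group, its lowest share.

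**Figure D3:**
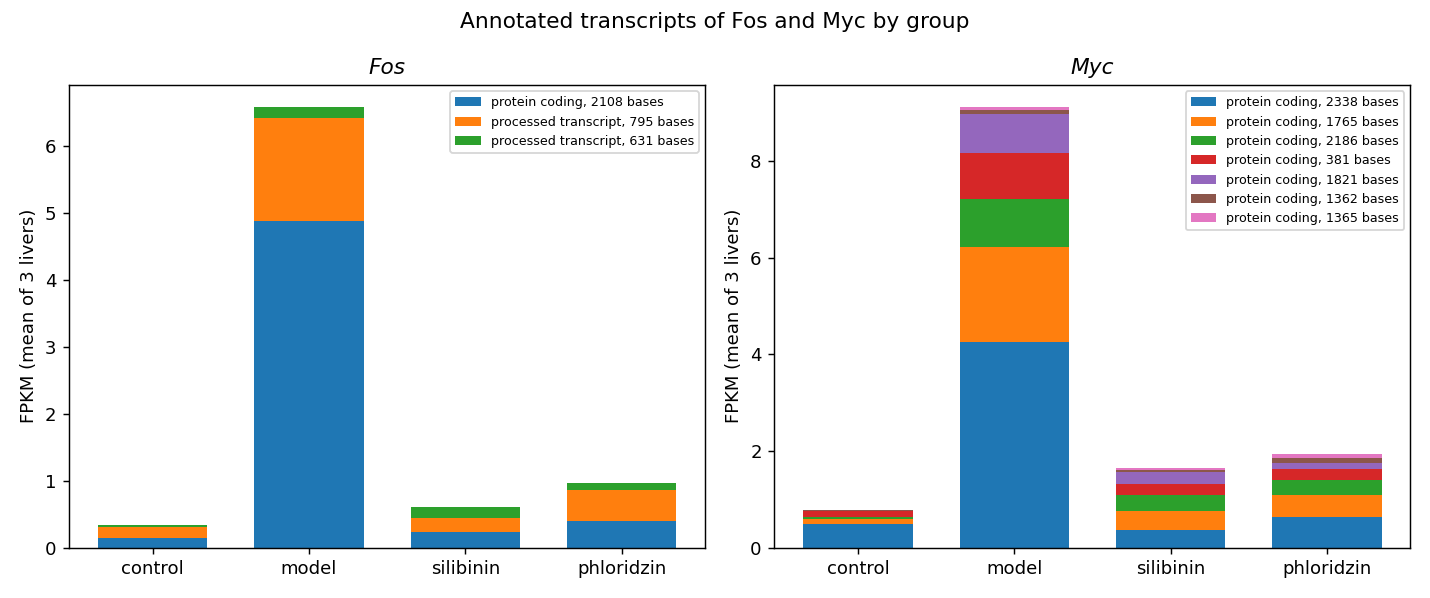
FPKM (vertical axis, mean of 3 livers per group) of each annotated transcript of Fos and of Myc, stacked and coloured by type and length in bases. The model group is highest for both genes, and processed transcripts make up a larger share of the Fos sum in the drug groups than in the model group, while the share in the control group depends on control liver 1.

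Other genes of the same pathways were taken from lists written for the tissue, with earlier results of these data known. Counts from the lists are therefore description and not independent support. Of other AP-1 and partner bZIP factors, 11 were tested and 3 were called higher in model against control (median 0.57, beside 0.34 for all genes). 3 were called lower with silibinin (median -0.54) and 3 with phloridzin (median -0.22), and by voom the counts were 4, 4 and 3. Atf3, a stress-induced bZIP factor, was at 0.306 ± 0.0567 FPKM (SD, n = 3) in control livers and 45.2 ± 4.33 FPKM in model livers. It was at 1.87 ± 0.814 FPKM with silibinin and 2.08 ± 1.00 FPKM with phloridzin. Atf3 changed by 5.14 in model against control (limma, Benjamini-Hochberg adjusted p = 2.09e-06), -4.05 in silibinin against model and -3.95 in phloridzin against model. The small Maf proteins bind DNA but have no activation domain. Maff was at 2.57, -2.50 and -2.49 in the same order of comparisons, and Mafk at 1.32, -1.53 and -1.13. Scaling by median ratios left Mafk uncalled in model against control (0.92) and in phloridzin against model (-0.96).

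Of 17 other immediate early transcription factors tested, 7 were called higher in model against control (median 1.19), 6 lower with silibinin (median -0.97) and 4 lower with phloridzin (median -0.82). After scaling by median ratios the counts were 5, 3 and 2, without model liver 2 they were 7, 4 and 2, and by voom 7, 7 and 9. Over all genes tested, the counts were 528, 242 and 243 of 13118 after scaling. Without model liver 2 they were 1143, 377 and 342 of 13158. By voom they were 2358, 792 and 701 of 13150, beside 1240, 428 and 384 of 13158 as reported. These counts over all genes also belong beside the reported, scaled and voom counts of the other lists and of the markers below. Klf6, a zinc finger factor induced in injured liver, was at 2.76 in model against control, -1.90 in silibinin against model and -1.80 in phloridzin against model. Egr2, a relative of Egr1, was at 1.93, -1.55 and -1.69 in these comparisons. Over 20 alternatives Egr2 ran from 1.70 to 7.52, from -3.23 to -1.32 and from -4.21 to -1.46. Whether Egr2 would pass the filter without the model group was not looked at, so its calls, which enter the counts above, are description only. Nr4a1, an orphan nuclear receptor, was at 1.64 in model against control and -1.13 in silibinin against model, where it was not called without silibinin liver 1 (-0.91) or after scaling (-0.96). In phloridzin against model Nr4a1 was at -0.93, under the fold threshold. Bhlhe40, a clock and stress repressor, was at 1.63 in model against control and at -0.97 in silibinin against model, under the fold threshold. In phloridzin against model it was at -1.04, where the call ended without model liver 2 (-0.94) or phloridzin liver 2 (-0.87) and after scaling (-0.88).

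Signalling and feedback genes of the immediate early class gave 13 of 29 tested called higher in model against control (median 1.08), 9 lower with silibinin (median -0.62) and 6 lower with phloridzin (median -0.74). After scaling by median ratios the counts were 8, 7 and 5, and by voom 15, 12 and 9. Dusp5 and Dusp4 code for phosphatases that switch off MAP kinases. Dusp5 was at 0.360 ± 0.138 FPKM in control livers and 9.33 ± 2.70 FPKM in model livers, and at 0.958 ± 0.323 and 1.07 ± 0.173 FPKM with silibinin and phloridzin. On the log2 scale it changed by 2.89 in model against control, -2.38 in silibinin against model and -2.28 in phloridzin against model. Dusp4 was at 2.48, -2.77 and -2.78 in these. Gadd45a, a growth arrest gene, was at 2.70, -2.53 and -2.35, and Btg2, an antiproliferative gene, at 2.30, -1.37 and -1.40.

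Upstream, 25 genes of the MAP kinase and serum response factor input were tested, and 1 was called higher in model against control (median 0.46, beside 0.34 for all genes), with 2 called by voom. Of all genes tested 9.42% were called higher there, and 3.25% and 2.92% lower with silibinin and phloridzin. After scaling by median ratios 0 were called and the median was 0.12, beside 0.01 for all genes. The gene called by limma, Mkl1, a coactivator of serum response factor, was at 1.15, but its most abundant transcript alone went the other way (-0.996), and it was uncalled without model liver 1 (0.97) or after scaling by median ratios (0.80). Limma called 0 of them in silibinin against model and 0 in phloridzin against model, with 7 and 8 at an unadjusted p under 0.05 and 1 and 0 called lower by voom. Of 20 genes of the interleukin 6 and STAT3 path around Socs3, 1 was called higher in model against control (median 0.50) and 1 lower with each drug, while voom called 5, 1 and 2. The same shares of all genes belong beside the limma counts of this path. After scaling by median ratios the median in model against control was 0.10, with 1 called higher and 1 lower of 21 tested. Limma called Osmr, the oncostatin M receptor, at 2.12 in model against control, -1.37 in silibinin against model and -1.39 in phloridzin against model. Another 5 listed genes of that path were under the filter.

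Partners and targets of MYC were read beside Myc. Of 14 partners and antagonists tested, 2 were called higher in model against control (median 0.62), and limma called 0 with either drug, with 8 at an unadjusted p under 0.05 with each and 0 called by voom, which called 1 in model against control. Max, the dimer partner of MYC, was at 1.02 and uncalled without control liver 2 (0.99), control liver 3 (0.96) or model liver 1 (0.99), and after scaling by median ratios (0.61). Mlxipl, a glucose-sensing factor, was at 1.42, and its call ended without control liver 2 or 3 or any model liver, with values from 1.26 to 1.55, or after scaling (1.02). Of 16 textbook MYC targets, 6 were called higher in model against control (median 0.97), 5 lower with silibinin (median -0.69) and 5 lower with phloridzin (median -0.60). Scaling by median ratios took the first count to 3, and by voom the counts were 5, 4 and 4. Srm, spermidine synthase, was at 9.36 ± 0.732 FPKM in control livers and 44.5 ± 2.95 FPKM in model livers, and at 6.60 ± 0.271 FPKM with silibinin and 7.70 ± 0.417 FPKM with phloridzin. Its log2 fold change was 2.14 in model against control (limma, Benjamini-Hochberg adjusted p = 2.09e-06), -2.58 in silibinin against model and -2.39 in phloridzin against model. The snoRNP genes Nop56 and Nop58 serve ribosomal RNA processing. Nop56 was at 2.12, -2.20 and -2.01, and Nop58 at 1.49, -1.56 and -1.61. For the most abundant transcript alone Nop56 was not called in any of the 3 (2.30, -2.30 and -2.30), and by voom Nop58 was not called in any (1.60, -1.83 and -1.40). Cad, an enzyme of pyrimidine synthesis, was at 1.09, -1.81 and -1.33, and its first value was 0.98, uncalled, without control liver 1 and 0.69 after scaling and 0.74 by voom, both uncalled.

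Textbook AP-1 targets gave 13 of 15 tested called higher in model against control (median 1.83), and 12 after scaling by median ratios. With silibinin 5 were called lower than in model (median -0.83), and with phloridzin 5 (median -0.77). The counts by voom were 14, 7 and 7. Against control, 5 were called higher with silibinin and 5 with phloridzin, where 1.74% and 2.74% of all genes tested were. Of these, the Mmp12 call ended in 5 alternatives with silibinin and 4 with phloridzin. The Ccnd1 call ended in 1 alternative with each drug. Mmp13, collagenase 3, was at 0.0368 ± 0.0523 FPKM in control livers and 5.72 ± 1.57 FPKM in model livers, and at 0.489 ± 0.142 FPKM with silibinin and 0.986 ± 0.716 FPKM with phloridzin. This was a log2 fold change of 2.67 in model against control, -2.15 in silibinin against model and -1.79 in phloridzin against model. Over 20 alternatives Mmp13 ran from 2.48 to 7.83, from -3.63 to -1.98 and from -2.81 to -1.64, and was called in each. Plaur, the urokinase receptor, was at 2.48, -1.87 and -1.65 in these comparisons. Mmp12, macrophage elastase, was at 3.68 in model against control, and its values of -1.45 in silibinin against model and -1.47 in phloridzin against model did not pass the test (limma, Benjamini-Hochberg adjusted p = 0.0529 and 0.0547). Over 21 alternatives these values ran from -1.78 to -0.49, with 5 called, and from -2.03 to -0.94, with 3 called. Ccnd1, cyclin D1, was at 2.77 ± 0.332 FPKM in control livers, 33.1 ± 2.53 FPKM in model livers, 11.7 ± 2.21 FPKM with silibinin and 13.7 ± 7.04 FPKM with phloridzin. It changed by 3.18 in model against control, -1.44 in silibinin against model and -1.34 in phloridzin against model, the last of which was uncalled without phloridzin liver 3 (-0.94).

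**Figure D4:**
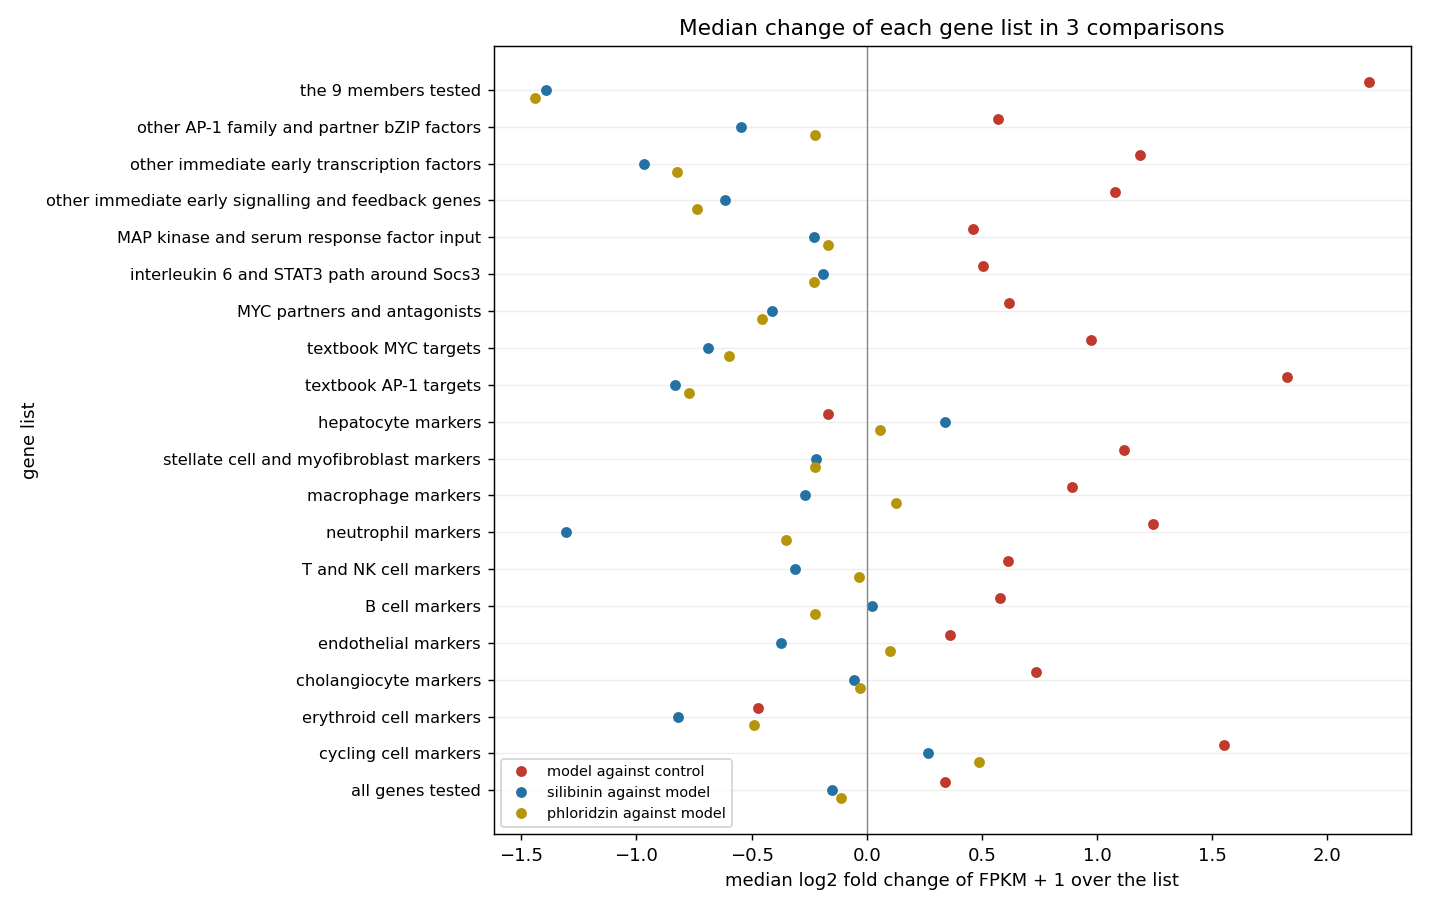
Median log2 fold change of FPKM + 1 (horizontal axis) over the 9 tested members, each gene list and all genes tested, in model against control, silibinin against model and phloridzin against model. The 9 members have medians of 2.18, -1.39 and -1.44, stellate cell and myofibroblast markers have 1.12, -0.22 and -0.23, and the 4 neutrophil markers tested have 1.24, -1.30 and -0.35, where without model liver 2 the markers of stellate cells have 1.06, -0.39 and -0.28 and those of neutrophils 0.98, -0.80 and -0.09.

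Markers of liver cell types also differed between model and control, and their part in the changes of the immediate early genes was not tested. Of 65 marker genes tested over 10 lists, 13 were called higher and 2 lower in model against control, where 9.42% of all genes tested were called higher. In silibinin against model 1 was called, Retnlg of neutrophils, lower, and in phloridzin against model limma called 0, with 7 at an unadjusted p under 0.05 and 0 called by voom. Of all genes tested only 3.25% and 2.92% were called lower in these drug comparisons. Low counts of called markers therefore do not show that the markers stayed level. No listed marker was at 0 in all 12 livers. The 10 stellate cell and myofibroblast markers, with Dcn the most abundant, summed to 90.8, 81.3 and 94.0 FPKM in the control livers, 249, 242 and 277 in the model livers, 249, 283 and 139 in the silibinin livers and 329.5, 199 and 173 in the phloridzin livers. Of them 5 were called higher in model against control (6 by voom), and with silibinin and phloridzin limma called 0 against model, with 1 and 2 at an unadjusted p under 0.05 and 0 and 0 by voom. Col1a1, the main fibrillar collagen, was at 4.35 in model against control, -0.44 in silibinin against model and -0.55 in phloridzin against model. Col3a1 was at 3.75, -0.26 and -0.51, and Lrat, a retinol enzyme of stellate cells, at 1.47, -0.60 and -0.83. The last value of Lrat was under the fold threshold (limma, Benjamini-Hochberg adjusted p = 0.0149). Over the alternatives, Col1a1 ran from -0.71 to 0.08 in silibinin against model and from -1.25 to -0.12 in phloridzin against model, and Col3a1 from -0.52 to 0.20 and from -1.10 to -0.12, with 0 calls. Col1a2 was at 1.52 in model against control, a call that ended without control liver 2 (1.51), control liver 3 (1.44) or model liver 1 (1.02).

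The 12 macrophage markers, with Cd5l the most abundant, summed to 163, 249 and 210.2 FPKM in the control livers, 309.5, 487 and 405 in the model livers, 312, 409 and 327 in the silibinin livers and 589.9, 518 and 325 in the phloridzin livers. 3 were called higher in model against control (5 by voom), and limma called 0 in either drug comparison with model, with 0 and 1 at an unadjusted p under 0.05 and 0 by voom. Gpnmb, a marker of lipid-laden macrophages, was at 4.73, -0.33 and -0.48 in the same order as above. Trem2 was at 2.78, -0.50 and -0.32, and Itgam at 1.69, -0.46 and -0.68. The 12 markers had medians of 0.89, -0.27 and 0.12, and of 0.77, -0.09 and 0.24 without model liver 2. So the median of the list in phloridzin against model had the other sign from these named genes. Over the alternatives Gpnmb ran from -0.76 to 0.34 in silibinin against model and from -1.07 to -0.07 in phloridzin against model, Trem2 from -0.64 to -0.21 and from -0.74 to -0.01, and Itgam from -0.91 to -0.29 and from -0.96 to -0.53, with 0 calls. Neutrophil markers (8, S100a8 the most abundant) summed to 22.6, 9.01 and 24.2 FPKM in the control livers, 29.9, 75.5 and 47.3 in the model livers, 19.6, 28.8 and 11.4 in the silibinin livers and 24.3, 85.7 and 42.1 in the phloridzin livers. As for the immediate early genes, model liver 2 was the highest model liver. This was not particular to neutrophils, since the sums of macrophage, B cell, endothelial, cholangiocyte and erythroid markers were also highest there. Model liver 3 was the highest for the other marker sets. Of the neutrophil markers 4 were tested. Their medians were 1.24 in model against control, -1.30 in silibinin against model and -0.35 in phloridzin against model. Without model liver 2 they were 0.98, -0.80 and -0.09. Retnlg was at 1.20 in model against control and -1.36 in silibinin against model. Without model liver 2 these were 0.95 and -1.12, both uncalled, and leaving out control liver 3 or model liver 3 also ended both calls. The first was lost as well without control liver 2 (0.92) and the second without control liver 1 or silibinin liver 1 or 3. The second also ended with the replicate block, after scaling by median ratios (-1.18), with no filter, with only the 2 compared groups and for the most abundant transcript, so it ended in 11 of the 21 alternatives.

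Hepatocyte markers (8, Alb the most abundant) summed to 19641, 23626 and 19457 FPKM in the control livers, 16295, 25207 and 27893 in the model livers, 28368, 35020 and 20296 in the silibinin livers and 23138, 30029 and 24106 in the phloridzin livers. Cyp2e1, the enzyme that activates CCl4, was the 1 called of these in model against control, at -2.35, with 1.06 in silibinin against model and -0.20 in phloridzin against model, neither of which passed the test. Over the 21 alternatives the silibinin value ran from 0.78 to 1.37, with 2 called, and the phloridzin value from -0.56 to -0.02, with 0 called. For the most abundant Cyp2e1 transcript alone the first value was -1.07 and not called. Cycling cell markers (6, Top2a the most abundant) summed to 1.01, 1.63 and 2.21 FPKM in the control livers, 17.0, 15.3 and 19.2 in the model livers, 30.4, 26.7 and 16.4 in the silibinin livers and 106, 13.8 and 10.7 in the phloridzin livers. Phloridzin liver 1 stood apart on these. Ccnb1 and Top2a were called higher in model against control (2.25 and 2.09). The Ccnb1 call ended without control liver 1 (2.19), control liver 2 (2.22) or model liver 3 (2.09), and the Top2a call without any 1 control or model liver, with values from 1.90 to 2.20. B cell markers (6, 5 tested) summed to 1.65, 5.02 and 3.50 FPKM in the control livers, 11.6, 23.5 and 11.6 in the model livers, 9.64, 22.5 and 9.70 in the silibinin livers and 13.2, 9.23 and 9.85 in the phloridzin livers, with Jchain, the most abundant, called higher in model against control (1.81). Cholangiocyte markers (6, 3 tested) summed to 11.3, 13.04 and 16.8 FPKM in the control livers, 46.3, 55.7 and 50.3 in the model livers, 48.0, 48.8 and 24.2 in the silibinin livers and 52.7, 26.9 and 25.7 in the phloridzin livers, with Spp1, the most abundant and also an AP-1 target of the list above, called higher (1.94). Erythroid markers (7, 6 tested, Hbb-bs the most abundant) summed to 1087, 1150 and 981 FPKM in the control livers, 782, 820.4 and 577 in the model livers, 535, 547 and 265 in the silibinin livers and 309, 624 and 896 in the phloridzin livers, with Slc4a1 called lower (-1.10), a call that ended without control liver 1 (-0.97) or control liver 3 (-0.98). For T and NK cells (9 markers listed and 3 tested, Nkg7 the most abundant) and endothelial cells (8 listed and tested, Clec4g the most abundant) limma called 0 in these 3 comparisons, with 1 and 1 at an unadjusted p under 0.05 in model against control and 0 called by voom. In model against control voom called higher 3 B cell, 2 cholangiocyte, 3 cycling cell and 2 neutrophil markers.

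Genes with the most similar profile were sought for each tested member among 6054 other genes with a mean of at least 5 FPKM, as the smallest root mean square difference in log2(FPKM + 1) over the 12 livers, after subtracting each gene's mean. For Fos these were Slc3a2 (0.22), Rassf1 (0.24) and Pvr (0.27), and for Fosl2 Baz1a (0.17), Spty2d1 (0.18) and Bhlhe40 (0.19). Slc3a2 codes for an amino acid transporter chain. For Jun the nearest were Klf6 (0.18), Arhgef2 (0.31) and Dusp6 (0.35), of which Klf6 and Dusp6 are immediate early genes of the lists above. Those of Junb were Rrs1 (0.28), Nfkbib (0.28) and Nupl1 (0.29), and those of Jund were Rrs1 (0.07), Mex3c (0.09) and Iars (0.11), so Rrs1, a ribosome assembly gene, was nearest to both. Egr1 was closest to Bhlhe40 (0.31), Osmr (0.33) and Gpr137b-ps (0.34). Myc was closest to Rassf1 (0.24), Pvr (0.26) and Osmr (0.27), and Ier3 to Actg1 (0.23), Rassf1 (0.25) and Dusp6 (0.25). Rassf1 thus appears for Fos, Myc and Ier3. Socs3 had Bcl3 (0.32), Mapk6 (0.34) and Gnpnat1 (0.38). Among the members themselves the closest pair was Fosl2 and Jund (0.19) and the farthest Jun and Junb (0.73). These differences also reflect how strongly each gene changed on this scale.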

How the data were processed

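Total RNA of 12 mouse livers was sequenced by the authors. The deposited table holds FPKM, with 169430 transcripts as rows and the 12 livers as columns, scaled by the authors to transcript length and library size. The submitters' processing notes name bcl2fastq, FastQC 0.11.5, HISAT2 2.1.0, StringTie 1.3.3b, DESeq 1.28.0 and the build mm10. Rows without a gene symbol (87294, NONCODE or assembled) were not used in the gene sums.

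FPKM were summed by symbol to 24296 genes. Genes with a mean of at least 0.5 FPKM were fitted on log2(FPKM + 1) by limma 3.58.1 with a trend in the variance (R 4.3.3, the data.table package in version 1.17.8), the 12 livers in 1 fit with 6 comparisons, two-sided, with Benjamini-Hochberg adjustment over the 13158 genes tested. The fit was also run on simulated data, of which no outcome is given here, and no statement rests on it. Fosb, under the filter, was given an exact permutation test. The other steps ran in Python 3.11.15 with matplotlib 3.10.9, scipy 1.17.1, pandas 2.3.3 and numpy 2.4.6. The members and the gene lists were chosen with earlier results of these data known. Each member is named with its value in every liver. From each of 18 lists (other AP-1 and bZIP factors, other immediate early transcription factors, signalling and feedback genes, MAP kinase and serum response factor input, the interleukin 6 and STAT3 path, MYC partners, MYC targets, AP-1 targets and 10 sets of cell type markers), up to 4 called genes with the largest change in model against control are named. The most abundant marker of each set and the 3 genes nearest in profile to each member are also named.

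The smallest step of a library was sought in transcripts of at least 1500 bases. Values multiplied by length were whole multiples of it, within 0.1 of a step, for at least 98.8% of the values used. Alternatives were scaling by median ratios, a pseudocount of 0.1 FPKM, no filter, a filter at a mean of 2 FPKM, only the 2 compared groups in the fit, a replicate block, the most abundant transcript of each gene, no fold threshold, voom of limma on recovered fragments (4 steps taken as 1 fragment), and leaving out each of the 12 livers.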

Additional observations from a re-analysis of the deposited data

Results flagged for a closer look

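Rows without a gene symbol entered no comparison of the report. Of 14 such NONCODE transcripts that overlap a member, 5 had their lowest model liver above their highest control liver. With a mean of at least 0.1 FPKM these were 4 of 7, as were 10858 of the 39718 rows without a symbol at that level and 45.1% of the genes tested, so the 4 are described and not ranked as more than the rest. The limit of 0.1 FPKM was chosen after the values were seen, and no test was run on these rows. NONMMUT051818.2, which overlaps Fosl2 on the same strand, read 0.756, 0.0541 and 0.906 FPKM in control livers and 3.05, 3.45 and 1.85 FPKM in model livers (mean 2.78). It read 1.24, 0.922 and 1.48 FPKM with silibinin and 0.958, 0.994 and 1.53 FPKM with phloridzin. NONMMUT118186.1, which overlaps Fosl2 on the same strand, read 0, 0.0715 and 0.177 FPKM in control livers and 0.278, 0.267 and 0.194 FPKM in model livers (mean 0.246). It read 0.145, 0 and 0.106 FPKM with silibinin and 0.228, 0.296 and 0.197 FPKM with phloridzin. NONMMUT051817.2, which overlaps Fosl2 on the opposite strand, read 0.159, 0.0636 and 0.144 FPKM in control livers and 0.872, 0.670 and 0.748 FPKM in model livers (mean 0.763). It read 0.259, 0.222 and 0.394 FPKM with silibinin and 0.0868, 0.508 and 0.0400 FPKM with phloridzin. NONMMUT115308.1, which overlaps Jun on the opposite strand, read 0.119, 0.0577 and 0.0225 FPKM in control livers and 0.297, 0.289 and 0.263 FPKM in model livers (mean 0.283). It read 0.0835, 0.0974 and 0.0723 FPKM with silibinin and 0.0946, 0.0850 and 0.0731 FPKM with phloridzin. Since the strand setting of the counting is not given, reads of these transcripts and of the overlapping member cannot be told apart.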

How the results depend on the processing

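Of 188 fold changes of members recomputed per comparison over 21 alternatives, 183 kept their direction and their side of the threshold in model against control, 158 in silibinin against model and 177 in phloridzin against model, and 0 turned direction in these 3. The number of members called lower in silibinin against model, 7 as reported, was 4 after scaling by median ratios, 5 with no filter, with only the 2 compared groups and for the most abundant transcript, 6 with the filter at a mean of 2 FPKM, under which Ier3 fell and was not tested, 8 by voom and with no fold threshold, and 4 to 7 when a liver was left out. In model against control it was 6 to 9 over the alternatives, and in phloridzin against model 6 to 8. In silibinin against control, 1 as reported, it was 0 after scaling by median ratios, with no filter, with the filter at a mean of 2 FPKM, with only the 2 compared groups, with the replicate block and for the most abundant transcript. It was 2 with a pseudocount of 0.1 FPKM, with no fold threshold and by voom, and 0 to 1 when a liver was left out. In phloridzin against control, 1 as reported, it was 0 after scaling by median ratios and with only the 2 compared groups, 3 with a pseudocount of 0.1 FPKM, 2 with no fold threshold, and 0 to 1 when a liver was left out. Of all genes, 792 of 13150 were called lower by voom and 1504 of 13158 with no fold threshold in silibinin against model. The count as reported was 428 of 13158. The scaling multiplies every gene of a liver by the same factor, which on the log2(FPKM + 1) scale shifts abundant genes more than low ones, fewer groups or livers leave fewer samples for the spread, and for the others the cause was not tested.

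Directions of members turned only between the drugs and against control. In phloridzin against silibinin, Junb ran from -0.31 to 0.12 when a liver was left out and was at 0.12, 0.05 and 0.09 without silibinin liver 1, silibinin liver 3 or phloridzin liver 1, Myc ran from -0.0017 without phloridzin liver 3 to 0.30, and Socs3 from -0.32 to 0.15, the last without phloridzin liver 1. In silibinin against control, Jund was at -0.020 after scaling by median ratios and Myc at -0.12 for its most abundant transcript. In phloridzin against control, Jund was at -0.090 and Socs3 at -0.15 after scaling, and Socs3 at -0.0021 by voom and at -0.03, -0.12 and -0.07 without control liver 3, phloridzin liver 2 or phloridzin liver 3, with 0.35 as its highest value when a liver was left out. None of these turned values was called. Of named list genes, Mkl1 turned for its most abundant transcript, to -0.996 in model against control, 1.20 in silibinin against model, where this value was called, and 0.85 in phloridzin against model. Without silibinin liver 3, Col1a1 turned to 0.08, Col3a1 to 0.20 and Gpnmb to 0.34 in silibinin against model, none of them called. Values of Col1a2 and Jchain in both drug comparisons with the model group, and of Ccnb1 and Top2a in phloridzin against model, also turned and were not called. For the most abundant transcript alone, the calls of Max (0.44), Mlxipl (0.40), Col1a2 (0.77), Trem2 (2.19), Itgam (1.25), Ccnb1 (1.39), Top2a (1.87) and Retnlg (1.20) in model against control ended, as did those of Nr4a1 (-0.98) in silibinin against model and Bhlhe40 (-0.97) in phloridzin against model. Mlxipl was also lost by voom, Mlxipl and Retnlg with no filter, Retnlg after scaling by median ratios, and Btg2 and Ccnd1 in phloridzin against model with only the 2 compared groups. Fosb was not among the recomputed values, and its fit with no filter gave the same differences as reported above.

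The replicate numbers share only a number. Residual correlations of livers with the same number ran from -0.09 to 0.10, which gives no ground to pair them, and with the replicate block the members called were 9, 7 and 8 in model against control, silibinin against model and phloridzin against model, and 0 and 1 in silibinin and phloridzin against control, and 0 in phloridzin against silibinin. Some low values rest on few steps, among them Fosb outside the model group and the control levels of Fos and Ier3, whose most abundant transcripts were at 24 to 40 and 20 to 70 steps. Each group has 3 livers, and the same model livers enter each comparison with the model group. Immediate early mRNAs turn over fast, and the time from the last CCl4 injection or drug dose to removal of the liver is not given, so the values are those of 1 unknown time after a dose. RNA says nothing of protein amount or phosphorylation, on which AP-1 activity also depends, and in whole liver the cells that carry the RNA are not known.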

Other observations

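The cycling cell markers were far apart within the phloridzin group. Their sum was 106 FPKM in phloridzin liver 1, 13.8 FPKM in liver 2 and 10.7 FPKM in liver 3, while Fos read 1.16, 0.944 and 0.783 FPKM and Myc 2.01, 1.303 and 2.49 FPKM in the same livers. The NONCODE transcript NONMMUT152752.1, opposite to Jund, read 5.61 FPKM in model liver 1 and at most 0.129 FPKM in the other 11 livers.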
